A study of Drosophila melanogaster with 3 samples.

Results

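The core spliceosome genes examined here were the protein-coding genes whose symbols follow the names of the small nuclear ribonucleoprotein (snRNP) proteins and splicing factors: snRNP-, Prp followed by a digit, Sf3a or Sf3b, SmB to SmG, LSm, U2af and Cdc5. The rule uses symbols alone and no measured value, and it found 34 of the 13945 protein-coding genes on the 6 main chromosome arms. The data were chromatin immunoprecipitation sequencing (ChIP-seq) peak lists from 1 group of 3 biological replicates, made from whole Drosophila melanogaster embryos of strain CG9797-GFP, aged 0 to 24 h and of mixed sex. This transgenic line stably expresses M1BP (CG9797) with GFP at its C-terminus; all 3 replicates carry the transgene, the promoter driving it is not named, and whole embryos mix all embryonic cell types. A free-text label calls these libraries input controls, while their assay title, antibody entry and listed control describe immunoprecipitates, and they were treated as immunoprecipitates. A gene was called bound when the summit of a peak in the authors' reproducibility-thresholded list of 4598 peaks lay within 250 bp of one of its annotated start sites.

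The spliceosome removes introns from pre-mRNA. It is built from the U1, U2, U4, U5 and U6 snRNPs, each an RNA with its own proteins, on a ring of Sm proteins or, for U6, LSm proteins. U1 marks the start of an intron, U2 pairs with the branch site near its end, and the U4/U6.U5 tri-snRNP then joins and is remodelled into the catalytic form with the help of the Prp19 complex. M1BP takes its name from Motif 1, the core promoter element that its zinc fingers recognise at many housekeeping genes without a TATA box. The DNA replication-related element (DRE) is another core promoter element, bound by the factor Dref.

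The promoters that held the exact Motif 1 core included those of Sf3b6, Cdc5, Sf3b1 and Prp3, all strongly bound. Their stretches just upstream of the start site are shown because they carry the match, with the core GGTCACACT in capitals. The sequences are from the NCBI RefSeq Release 6 genome in dm6 coordinates, written in the direction of the gene.
Sf3b6 (chr3L:6193180-6193279, minus strand): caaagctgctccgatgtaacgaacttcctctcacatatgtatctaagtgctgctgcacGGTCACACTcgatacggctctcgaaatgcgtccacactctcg
Cdc5 (chr3L:361384-361471, minus strand): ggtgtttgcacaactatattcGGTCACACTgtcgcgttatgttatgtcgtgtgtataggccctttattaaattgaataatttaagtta
Sf3b1 (chr2L:568240-568339, plus strand): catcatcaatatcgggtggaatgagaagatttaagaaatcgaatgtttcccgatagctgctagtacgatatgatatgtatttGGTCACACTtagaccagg
Prp3 (chr3L:19910216-19910299, plus strand): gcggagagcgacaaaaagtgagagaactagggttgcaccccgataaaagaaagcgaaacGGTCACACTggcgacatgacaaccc
At snRNP-U1-70K the core lay just inside the gene, and only the site itself is shown.
snRNP-U1-70K (chr2L:6971703-6971732, minus strand): accgcgcgggGGTCACACTtgctactcaag
Of the members without the core near their summit, snRNP-U1-C had the strongest peak, and Sf3b2 and U2af38 were among the weakest bound. Each has the DRE sequence TATCGATA, in capitals, upstream of its start site. At snRNP-U1-C it begins at −40 bp from the start site and 204 bp from the summit, outside the window searched around the summit. A Motif 1 match with up to 1 mismatch begins at −79 bp from that summit and −323 bp from the start site. This match reads on the strand opposite to snRNP-U1-C.
snRNP-U1-C (chr3R:18983651-18983750, minus strand): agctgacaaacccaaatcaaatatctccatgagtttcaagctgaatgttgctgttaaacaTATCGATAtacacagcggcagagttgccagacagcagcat
Sf3b2 (chr2L:3029169-3029252, minus strand): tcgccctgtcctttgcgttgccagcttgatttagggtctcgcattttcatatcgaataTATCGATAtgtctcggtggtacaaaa
U2af38 (chr2L:294682-294781, minus strand): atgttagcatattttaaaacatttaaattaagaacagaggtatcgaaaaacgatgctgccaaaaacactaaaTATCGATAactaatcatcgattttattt

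M1BP peaks lay at most core spliceosome promoters. Of the 34 core spliceosome genes, 25 were bound (73.5%), beside 31.1% of all protein-coding genes (4342 of 13945). Among the 4598 strongest entries of each replicate's own list, taken to measure the spread between libraries, replicate 1 marked 24 members (70.6%), beside 31.3% of all genes. Replicate 2 marked 22 members (64.7%), beside 28.3%, and replicate 3 marked 21 (61.8%), beside 29.3%. The mean was 65.7% ± 4.49 for the core spliceosome genes and 29.6% ± 1.49 for all genes (SD, n = 3 replicates), and the ranges did not overlap. All 3 replicates marked 19 members (55.9%), beside 20.9% of all genes. A further 3 members were marked in exactly 2 replicates, 4 in 1 and 8 in none. With 1 group and no group to set it against, these shares are a description of the lists and were not tested.

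**Figure D1:**
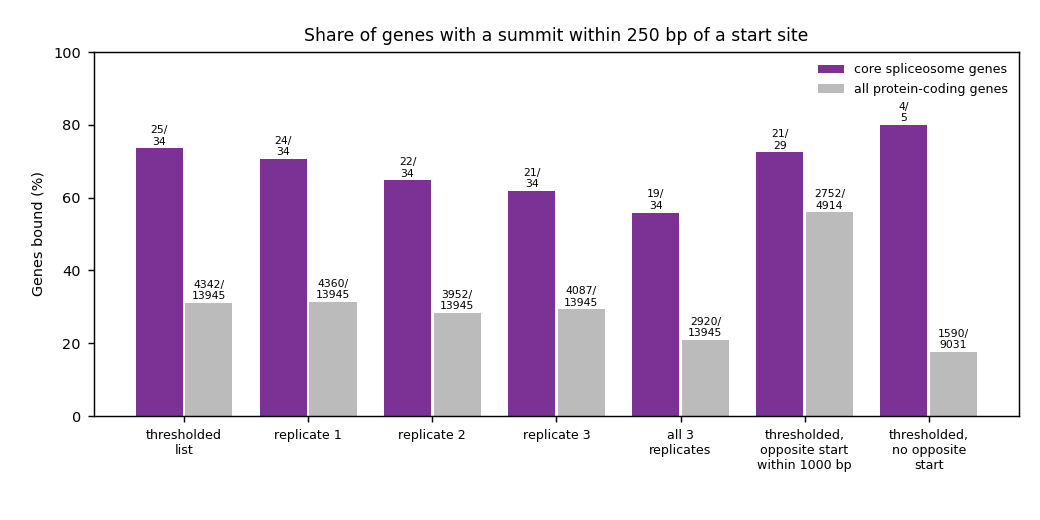
Share of genes bound (%), for the 34 core spliceosome genes (purple) and all 13945 protein-coding genes (grey), in the thresholded list, in the 4598 strongest entries of each replicate, in all 3 replicates at once, and with genes split by an opposite start site upstream; the counts stand above the bars. Between 61.8% and 70.6% of the members were marked in each replicate, beside 28.3% to 31.3% of all genes.

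The median peak of the bound members was also stronger than that of all bound genes. The signal value is the authors' score for a peak, comparable within 1 list. The strongest thresholded peak of the bound members had a median signal value of 910.5 (n = 25), against 690.2 for all bound genes (n = 4342). A like ratio was taken in each replicate on its own signal values, over the genes marked by its own strongest entries. The median of the marked members over that of all marked genes was 1.37, 1.35 and 1.52 in replicates 1, 2 and 3. The marked sets held 24, 22 and 21 members and differ from the bound set, so these ratios do not repeat the comparison above. Over all bound genes the lower quartile was 422.9, the upper quartile 1186.4 and the 90th percentile 1671.2. Of the 25 bound members, 16 lay above the median, 8 above the upper quartile, 4 above the 90th percentile and 6 below the lower quartile. The count below the lower quartile was near the share that a quartile holds by definition. Those above the upper quartile and the 90th percentile exceeded their shares by few genes. The 4 strongest were Sf3b6, snRNP-U1-C, Cdc5 and snRNP-U1-70K, from 3 different assembly stages, so no single snRNP held the strong peaks.

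**Figure D2:**
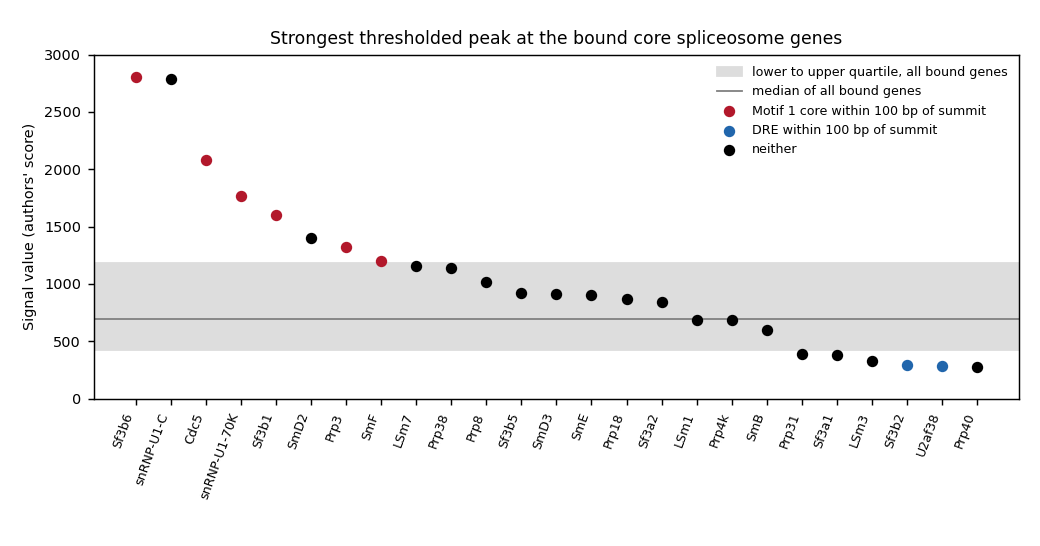
Signal value (the authors' score, linear axis) of the strongest thresholded peak at each of the 25 bound core spliceosome genes, coloured by the motif within 100 bp of the summit; the grey line and band are the median and the lower to upper quartile of all 4342 bound genes. Members run from 2800.5 at Sf3b6 to 276.6 at Prp40, and those with the Motif 1 core all lie above 1186.4, the upper quartile.

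Of the 4 U1 snRNP genes, which act first at the intron's start, 3 were bound, and they spanned almost the whole range of signal. snRNP-U1-C encodes the U1 protein that steadies pairing with the splice site, and its peak had a signal value of 2787.1 (rank 45 of 4598). Its rank was 42 in replicate 1 and 68 in replicate 3; the nearest entry of replicate 2 was at 262 bp, ranked 50. The thresholded summit lay 244 bp upstream of the start site, just inside the limit, and 131 bp from the start site of gukh on the opposite strand. The peak is thus strong in all 3 libraries, but its nearer gene is gukh. snRNP-U1-70K, which encodes the protein that binds a stem-loop of U1 RNA, had a signal value of 1768.2 (rank 274) and ranked 312, 400 and 152 in replicates 1, 2 and 3, with its summit 47 bp upstream and no other start site within 250 bp. Prp40, a U1-associated factor known from yeast to bridge the intron's ends, had the lowest signal value of all bound members, 276.6 (rank 4390). Its rank was 6228 in replicate 1 and 2118 in replicate 2, replicate 3 had no entry within 4880 bp, and the summit lay 23 bp from the start site of alpha4GT1 and 108 bp from that of Prp40. Prp39, another U1-associated factor in yeast, was unbound, with the nearest thresholded summit 19889 bp away. Replicates 1 and 3 listed it at ranks 5347 and 23048, and replicate 2 had an entry at 261 bp, ranked 3758.

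The 10 genes of the U2 snRNP and of branch-site recognition included 7 bound ones, with a median signal value of 842.2. Sf3b6, the small SF3b subunit that contacts the branch-site adenosine, had the strongest peak of all members (2800.5, rank 44), with signal values of 1607.1, 648.3 and 626.9 in replicates 1, 2 and 3, where it ranked 21, 173 and 19. Its summit lay 61 bp upstream of its start site (peak at chr3L:6192960-6193669, dm6) and 240 bp from that of Tnpo on the opposite strand. Sf3b1, the scaffold of SF3b around the branch helix, had 1601.9 (rank 364) and ranked 235, 1088 and 136. Both genes were strong in every replicate and weakest in replicate 2. Sf3b5, a small SF3b subunit, had 921.4 and ranked 1144, 993 and 1506. Its strongest summit lay 241 bp downstream of the start site, in its coding exon and 191 bp from the start site of Kcmf1, but a second thresholded summit of 830.9 lay 41 bp from its own start site. Sf3a2, an SF3a subunit that joins U2 with SF3b, had 842.2 and ranked 894, 4083 and 856, again weakest in replicate 2. The thresholded summit lay 19 bp from its start site, but that replicate 2 entry lay at 240 bp. The replicate 2 entry at 34 bp ranked 29830.

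The other 3 bound genes of the U2 class were weak in the thresholded list. Sf3a1, the largest SF3a subunit, had 377.4 and ranked 3938, 2157 and 7642. Sf3b2, the SF3b subunit that contacts pre-mRNA next to the branch site, had 296.2 and ranked 5331, 5007 and 4895, outside the strongest 4598 of every replicate. Its summit lay 4 bp from the start site of CG17219 and 89 bp from its own. U2af38, the small U2AF subunit that reads the intron's last bases, had 283.9 and ranked 4970 and 4610 in replicates 1 and 2, while replicate 3 had its nearest entry at 353 bp, ranked 1616. Thus neither Sf3b2 nor U2af38 was among the strongest entries of any replicate within 250 bp. Prp40 and Sf3b2, which act at opposite ends of an intron, are neighbours on arm 2L (3023226 to 3026439 and 3026252 to 3029168) whose annotated far ends overlap. Both peaks were weak, and each lay nearer to the start site of the opposite neighbour than to its own.

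Of the unbound genes in this class, U2af50, the large U2AF subunit that binds the polypyrimidine tract, had no thresholded summit within 8188 bp. It nonetheless had an entry ranked 2821 in replicate 1 and 4937 in replicate 3, with none within 7946 bp in replicate 2. Sf3b3, the SF3b subunit that packs against Sf3b1, ranked 4410 and 29106 in replicates 1 and 2, with none within 4300 bp in replicate 3. Prp5, the ATPase that acts when U2 joins, ranked 6803 and 5095 in replicates 1 and 2, and in replicate 3 the nearest entry lay at 402 bp, ranked 14930. U2af50 and Sf3b3 were thus among the strongest entries of replicate 1 alone, and Prp5 of none. The subunits of 1 complex differed: within SF3b, signal values ran from 2800.5 at Sf3b6 to 296.2 at Sf3b2, with Sf3b3 unbound.

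The Sm ring is the protein collar shared by the U1, U2, U4 and U5 RNAs. Of its 6 genes, 5 were bound, with signal values of 598.5 to 1400.3, a narrower range than in the U1 and U2 classes. SmD2 had 1400.3 (rank 547) and ranked 502, 840 and 390 in replicates 1, 2 and 3. SmF had 1202.6 (rank 776) and ranked 859, 619 and 963, with its summit 7 bp downstream of the start site. SmD3 had 910.5 and ranked 2051, 525 and 2221. Replicate 2 thus placed SmD3 far above the other libraries. SmE had 900.8 and ranked 1718, 801 and 1883, with the summit 8 bp downstream of its start site and 61 bp from that of CG34132. SmB had 598.5 and ranked 1741 and 1688 in replicates 1 and 3, while replicate 2 had its nearest entry at 301 bp, ranked 3769. SmD1 fell just outside the limit: a thresholded summit with a signal value of 392.0 (rank 3140) lay 258 bp from its start site and nearer to Ptp69D. Replicates 1 and 3 had entries at 259 and 272 bp, ranked 3130 and 3109, and replicate 2 had none within 9823 bp. SNRPG, listed in RefSeq with the synonym SmG and not matched by the rule, was unbound, with the nearest thresholded summit 387 bp away; it was looked up after the lists were fixed.

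The LSm proteins form a like ring on U6 RNA, and 2 of the 3 ring genes found were bound. LSm7 had 1156.5 (rank 844) and ranked 613, 1785 and 778. LSm3 had 328.1 (rank 3743) and ranked 4561, 3737 and 4206, close to the end of the strongest 4598 in each replicate. LSm-4 had no entry within 250 bp in any list, and its nearest thresholded summit lay 3069 bp away. LSm1, which belongs to the cytoplasmic ring that acts in mRNA decay rather than to the U6 ring, was bound, with 686.7, and ranked 1362, 2257 and 882. The ring genes therefore ranged from clearly bound to no entry at all.

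Of the 6 genes of the U4/U6.U5 tri-snRNP and its activation, 5 were bound, and all 5 were among the strongest entries of every replicate. Prp3, a U4/U6 protein, had 1320.4 (rank 628) and ranked 1027, 329 and 978, with its summit 27 bp upstream of the start site and 58 bp from that of Mi-2. Prp38, which is needed to activate the assembled complex, had 1138.6 and ranked 1153, 550 and 1592, with the summit 6 bp from its start site and 36 bp from that of shrb. Prp8, the U5 protein that cradles the catalytic RNA core, had 1016.7 and ranked 1179, 1167 and 863, with its summit 2 bp from the start site. For Prp8 the replicates thus gave nearly the same place. Prp4k, the kinase of tri-snRNP proteins, had 684.1 and ranked 1731, 2315 and 828. Prp31, a U4/U6 protein that holds the tri-snRNP together, had 385.0 at a summit 226 bp upstream and a second summit of 343.0 at 26 bp, and ranked 2474, 2878 and 1327. Prp6, which bridges U5 and U4/U6, was unbound, ranked 9666, 18542 and 10111, and had the nearest thresholded summit at 6291 bp. It was the one member of the class outside the strong entries of all 3 libraries.

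In the Prp19 complex and among the factors of the catalytic steps, 2 of 4 genes were bound. Cdc5, a scaffold of the Prp19 complex, had 2077.5 (rank 144), with signal values of 1117.4, 556.3 and 434.8 in replicates 1, 2 and 3, where it ranked 125, 258 and 135. Its summit (peak at chr3L:361120-361637, dm6) lay 62 bp upstream of its start site and 27 bp from that of CG1233 on the opposite strand. Prp18, which acts in the second step, had 866.1 and ranked 1011, 2529 and 601. Its ranked replicate 2 entry lay 178 bp from the start site, at another summit than the thresholded one. The replicate 2 entry at 22 bp ranked 22670. Prp19, the ubiquitin ligase that names the complex, was unbound, although the pooled list held an entry ranked 5371 with a −log10 q-value of 2.46. It ranked 4863 and 3657 in replicates 1 and 2, and replicate 3 had none within 3581 bp. Prp16, the helicase that acts between the catalytic steps, ranked 17303 and 9458, had no entry within 926 bp in replicate 3, and had its nearest thresholded summit 21819 bp away. Cdc5 and Prp18 were among the strongest 4598 entries of every replicate, with Prp18 lowest in replicate 2, whereas Prp16 was among them in none and Prp19 in replicate 2 alone.

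**Figure D3:**
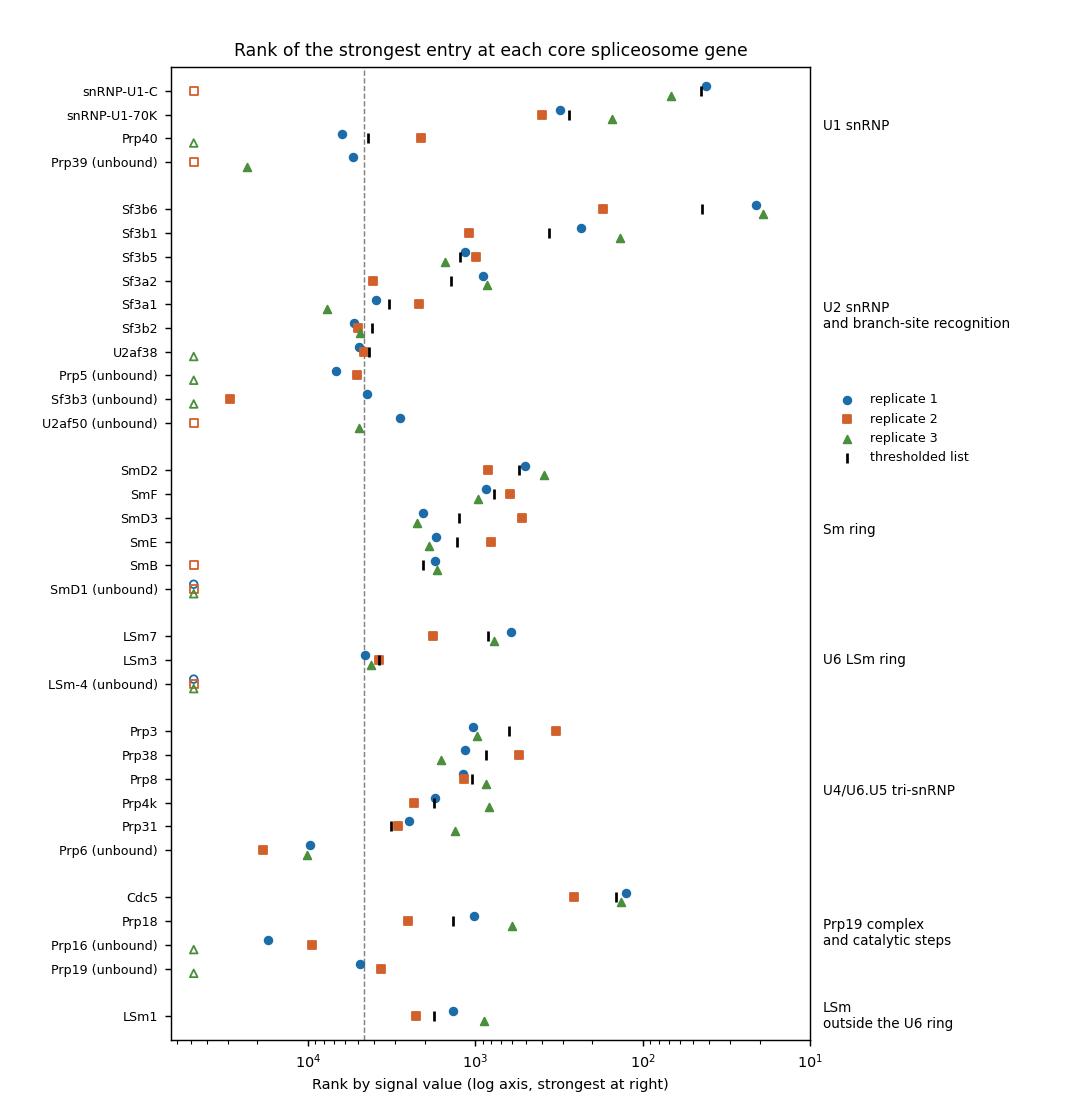
Rank by signal value (log axis, strongest at right) of the strongest entry within 250 bp of a start site for all 34 core spliceosome genes, grouped by class, in replicates 1 (circles), 2 (squares) and 3 (triangles) and in the thresholded list (black ticks). Open symbols at the left mark replicates with no such entry, and the dashed line marks rank 4598. The 5 bound tri-snRNP genes lie right of the line in every replicate, while Prp40, Sf3b2 and U2af38 lie at or left of it in most.

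Most of these genes stand head to head with a neighbour. An opposite-strand start site of another gene lay within 1000 bp upstream of 29 of the 34 members (85.3%), beside 35.2% of all genes. Of these 29, 21 were bound (72.4%), beside 56.0% of all genes so arranged. Of the 5 members without such a neighbour, 4 were bound (80.0%), beside 17.6% of all genes without one. Members exceeded all genes in both arrangements, but by less where a neighbour was present, and the part of the neighbours in the overall share was not tested. Of the 9 unbound members, 8 also had an opposite neighbour. Over all genes, 4914 of 13945 had one, and 2752 of those 4914 were bound. The strongest summit of 16 bound members also lay within 250 bp of another gene's start site, on the opposite strand for 15 and on the same strand for Sf3b5. For 5 of the 16 the other start site was the nearer one, and such a peak cannot be assigned to 1 gene of the pair. The shares of all bound genes with such summits were not computed, so these counts cannot be read as traits of the members.

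The summits sat close to the start sites, mostly upstream. The median distance was 61 bp for bound members and 57 bp for all bound genes. The summit lay upstream at 19 bound members and downstream at 6, and within 100 bp at 19. These counts were not taken over all bound genes, so they cannot be read as particular to the members. Of the bound members, 5 had a pair of thresholded summits within 250 bp, spaced 200 to 205 bp apart (Prp31, Prp38, Prp4k, Sf3a2 and Sf3b5). In all 5 pairs the summit with the lower coordinate was the stronger, whichever way the gene runs. The same order held at LSm1, LSm7, Sf3b6, SmD2 and snRNP-U1-C, whose second thresholded summit lay beyond 250 bp. At U2af38 the 2 summits, at 294716 and 295085, lay farther apart than these pairs, and the order was reversed (signal values 283.9, then 435.1). Weak entries of unbound Prp6 showed the order in replicate 1 (82.5, then 62.5). Its pooled entries, at 18904930 and 18905545, also lay farther apart and had the reverse order (64.8, then 76.4). The share of pairs with this order was not computed over all peaks, so it cannot be read as a trait of the members. Prp31 and Sf3b5, with strongest summits 226 and 241 bp from the start site, are among the 5 members with a pair within 250 bp.

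The Motif 1 core GGTCACACT, searched on both strands, lay within 100 bp of the summit at 6 of the 25 bound members (24.0%), beside 17.8% of all bound genes (772 of 4342). These were Cdc5, Sf3b6, Prp3, Sf3b1, snRNP-U1-70K and SmF. The first base of the match lay at −67, −42, −25, −18, 15 and 25 bp from the start site in that order, where minus is upstream. All 6 matches read in the direction of the gene, beside 66.2% of the 772 bound genes with the core. The 6 members with the core had a median signal value of 1685.1 and the other 19 bound members 842.2. Over all bound genes the medians were 1139.7 with the core and 601.5 without it. Within 100 bp of a start site, 6 of 34 members (17.6%) and 5.3% of all genes held the core. All 6 of these members were bound, beside 693 of the 738 genes of the genome with it (93.9%). None of the 9 unbound members held it, beside 0.5% of unbound genes. Allowing 1 mismatch over the full Motif 1 consensus gave 9 bound members, with SmD2, Prp18, Prp4k and snRNP-U1-C added and snRNP-U1-70K lost. The match at snRNP-U1-C reads against the direction of that gene. The share of all bound genes was not computed at this looser setting, so the rise cannot be read as a result about the members.

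**Figure D4:**
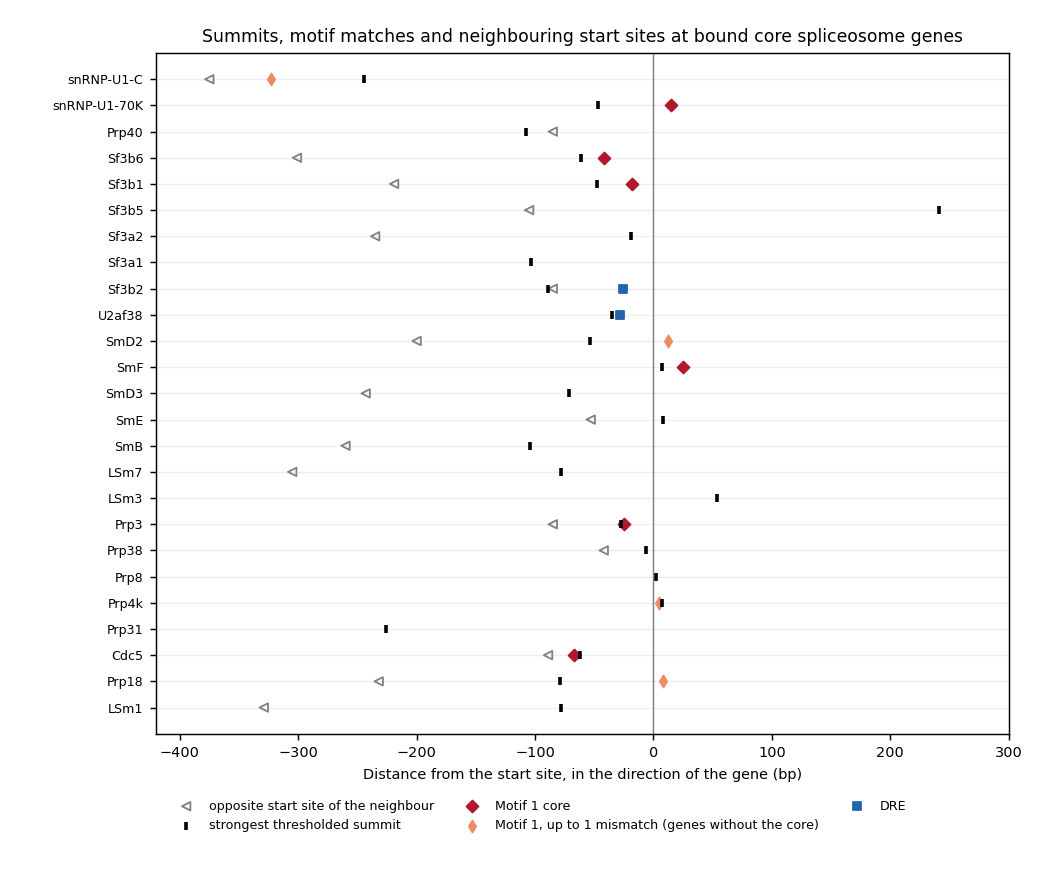
Position of the strongest thresholded summit (black ticks), Motif 1 core (red), Motif 1 match with up to 1 mismatch (orange, for genes without the core) and DRE (blue) at each of the 25 bound core spliceosome genes, in bp from the start site in the direction of the gene. Motif matches are those within 100 bp of the summit, and grey triangles are opposite start sites up to 400 bp upstream. The 6 cores lie between −67 and 25 bp.

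The DRE gave a different picture from Motif 1. The sequence TATCGATA lay within 100 bp of the summit at 2 of the 25 bound members (8.0%), Sf3b2 and U2af38, beside 13.7% of all bound genes. Their signal values were 296.2 and 283.9, both below the lower quartile of all bound genes. Within 100 bp of a start site it was present at 7 of 34 members (20.6%), beside 7.8% of all genes. Of those 7 members, 4 were bound (57.1%), beside 58.4% of all genes with it. The bound ones were Sf3b2, U2af38, snRNP-U1-C and SmE, and the unbound ones were Prp39, Sf3b3 and Prp6, which make up 3 of 9 unbound members (33.3%), beside 4.7% of all unbound genes. Prp39 held 2 matches, at −36 and −13 bp, Sf3b3 held 2, at −78 and −49 bp, and Prp6 held 1 at −9 bp. No member had the Motif 1 core and the DRE together in these windows.

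The palindromic E-box CAGCTG lay within 100 bp of the summit at 5 of 25 bound members (20%), beside 17.7% of all bound genes. They were Sf3b2, SmD3, SmF, Prp38 and Cdc5. The GAGA element GAGAG, on either strand, lay there at 3 of 25 (12.0%), Sf3b6, Prp3 and Prp8, beside 15.3%. None of the 9 unbound members had GAGAG within 100 bp of a start site, beside 25.1% of unbound genes. None of the 4 motifs contains another, and a match is a description of the sequence only.

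The members' place in replicate 2 moved with base composition. GC content within 100 bp of the summit had a median of 37.8% at bound members and 38.8% at all bound genes. Of the 21 bound members with an entry within 250 bp in all 3 lists, 11 had their weakest rank in replicate 2, and their GC content had a median of 33.3% (22.9% to 40.8%). Another 8 had their strongest rank there, with a median GC content of 44.3% (36.3% to 52.7%). Prp18 and LSm1, both at 22.9%, were weakest in replicate 2, whereas SmD3, at 52.7%, ranked 525 there, against 2051 and 2221 in replicates 1 and 3. GC content was taken at the thresholded summit, but a replicate rank can come from another summit within 250 bp of the start site. In replicate 2 the ranked entry lay at 19031093 for Prp18 and 21170496 for LSm1, against thresholded summits at 19031350 and 21170750. The ranked entries of Sf3a2 (12813779 against 12814038) and Prp31 (15159200 against 15158874) also lay at other summits. The correlations below therefore do not always compare 1 peak across libraries. Across the 21 members, Spearman's rho was −0.72 between GC content and the log2 ratio of the rank in replicate 2 to the geometric mean of the other ranks. Across 3745 bound genes of the whole genome it was −0.74. All points share the same 3 libraries, so these values describe the libraries; Sf3b6, at 40.8% GC and a log2 ratio of 3.11, stood off the trend. The part of base composition in any member's rank was not tested.

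**Figure D5:**
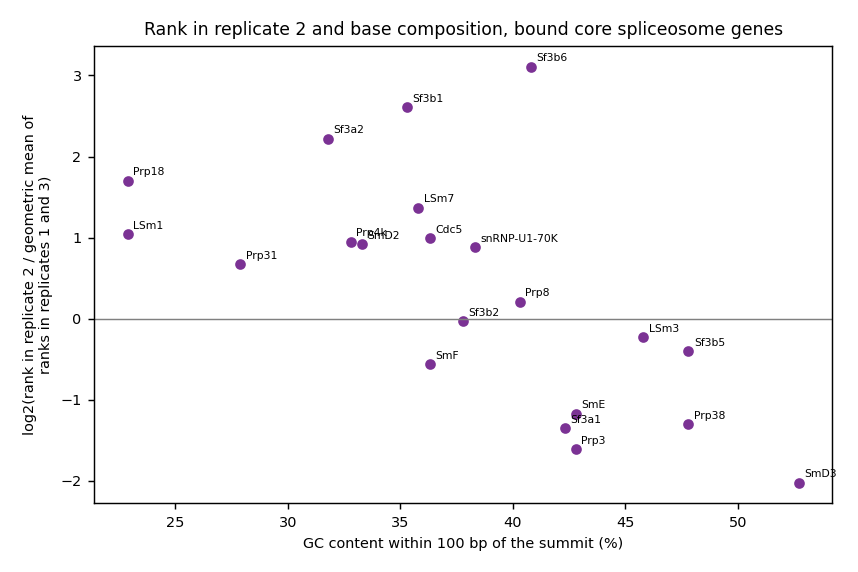
GC content within 100 bp of the summit (%) against the log2 ratio of the rank in replicate 2 to the geometric mean of the ranks in replicates 1 and 3, for the 21 bound core spliceosome genes with an entry in all 3 lists; values above 0 mean a weaker place in replicate 2. Sf3a2, Sf3b1 and Sf3b6 lie at 2.22, 2.61 and 3.11, and SmD3 lies lowest at −2.02. A rank can come from another summit than the one whose GC content is shown.

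The bound members were spread over the autosomes. Of the members on each arm, 8 of 9 were bound on 2L, beside 28.3% of all genes there, and 5 of 6 on 2R, beside 31.2%. On 3L 6 of 9 were bound, beside 31.6%, and on 3R 6 of 7, beside 32.2%. None of the 3 members on X was bound (Prp5, Prp16 and U2af50), beside 33.1% of all genes on X. Among the further splicing genes described below, snf, c12.1 and Bx42 lie on X and were bound. Usp39, crn and Tango4, and SNRPG described above, also lie on X and were unbound. On 2R, Prp8 (12154258 to 12162998), SmD3 (12168731 to 12170003) and SmF (12183844 to 12184310) stand close together, and all 3 were bound at their own start sites. Their signal values of 1016.7, 910.5 and 1202.6 were of similar size.

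Other genes of the splicing pathway, 4 of which (Phax, Smn, Gem2 and Gem3) act in snRNP export or assembly and are not spliceosome components, were also looked up. Of a list of 39 further symbols, 34 matched a gene and 24 of those were bound (70.6%), beside 31.1% of all genes. Without the 4 export and assembly genes, 21 of 30 were bound. The median signal value of the 24 was 881.5, beside 690.2 for all bound genes. In replicates 1, 2 and 3, 24, 20 and 21 of the 34 were among the strongest entries, beside 31.3%, 28.3% and 29.3% of all genes. The strongest was Cypl, a cyclophilin of the activated spliceosome, with 2689.7 (rank 50) and ranks of 76, 42 and 88. Brr2, the helicase that unwinds U4 from U6, had 1749.2, snf, which encodes a protein shared by the U1 and U2 snRNPs, had 1303.8, and Phf5a, an SF3b subunit, had 1320.4. The Motif 1 core lay near the summit at 4 of the 24 (16.7%; c12.1, Phf5a, CG9344 and Gem2), beside 17.8% of all bound genes. The 10 unbound were U4-U6-60K, with a thresholded summit at 287 bp, BCAS2, with one at 437 bp, and CG4849, CG2021, Smn, Usp39, Tango4, crn, Cwc25 and Spf45.

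The genes of the RNA components had no thresholded peak. None of 28 spliceosomal snRNA genes had a thresholded summit within 250 bp, beside 31.1% of all protein-coding genes bound. In at least 1 replicate list 14 had an entry, and 1, snRNA:U5:63BC, was among the strongest of replicate 1. The shares of other non-coding genes bound, and of all genes with any entry, were not computed. The 14 entries therefore have no reference. Several snRNA genes are near-identical copies, so the placement of reads there is uncertain.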

How the data were processed

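Per the deposited notes, the authors called peaks and background on each of 3 replicates and on all 3 together against 1 control file (30000 entries per list, dm6) and derived a thresholded list of 4598 peaks by irreproducible discovery rate. Aligner, peak caller and threshold: not given in the sources used here. Signal values, as deposited, are a score of the authors' caller, used only to rank peaks within 1 list. The deposited −log10 q-value reached its ceiling of 3.95 in 4445 thresholded peaks. The files hold no read counts, so depth is unknown. Summits (interval start plus the deposited offset) were matched to 19252 start sites of Ensembl release 115 (BDGP6.54), and motifs were searched in the NCBI Release 6 genome, with scripts first tested on simulated data. A replicate rank is that of the strongest entry within 250 bp, whose summit can differ from the thresholded one. Every member is named. The members and lists were chosen with earlier results of these data known. Alternatives changed the distance, peak list, start sites, gene assignment and motif window. Python 3.11.15, numpy 2.4.6, pandas 2.3.3 and matplotlib 3.10.9 were used.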

Additional observations from a re-analysis of the deposited data

How the results depend on the processing

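The number of bound core spliceosome genes ranged from 19 (55.9%) to 26 over the alternatives. A limit of 100 bp gave 21, beside 23.3% of all genes. A limit of 500 bp gave 26 by adding SmD1, beside 34.5%. The pooled list at a −log10 q-value of at least 2 gave 26 by adding Prp19, beside 34.6%. Giving each peak to its nearest gene gave 21 by losing Cdc5, Prp40, Sf3b2 and snRNP-U1-C, beside 25.6%. Peaks above the median signal value gave 19 members, beside 2716 of all genes (19.5%). Leaving out 1 replicate gave 19 to 21 members (55.9% to 61.8%), beside 3047 to 3743 of all genes (21.9% to 26.8%). Classes are small. Bound U1 genes fell to 1 of 4 at 100 bp and with nearest genes only. They also fell to 1 of 4 when both other replicates were required, with replicate 1 or replicate 3 left out. Bound U2 genes fell to 4 of 10 above the median signal value and in replicate 3 alone. They also fell to 4 of 10 when both other replicates were required, with replicate 1 or replicate 2 left out. The U6 LSm ring fell to 1 of 3 above the median, and the Prp19 class to 1 of 4 with nearest genes only. The median signal value lay between 900.8 and 910.5 under the 4 alternatives run for it (100 bp, 500 bp, most upstream start site, nearest gene). The Motif 1 core was found at 5 members within 50 bp of the summit, a setting for which no share over all bound genes was computed. No paired analysis was possible because there is 1 group. Unknown depth and the conflict in the labels limit every value.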
